A study of Mus musculus with 2 samples.

Results

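Wnt signalling genes were examined in cells sorted from the embryonic mouse sinoatrial node, the natural pacemaker of the heart. The genes were chosen by name: every row of the gene table whose symbol belongs to the Wnt, Frizzled, Sfrp, Dickkopf, R-spondin, Dishevelled or Lgr4 to Lgr6 families or is Porcn, and 24 further listed pathway genes. This gave 35 of the 12446 genes in the table. Another 37 family or listed genes have no row in the table used here and were not measured.

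The cells came from ICR embryos that carried Hcn4-CreERT2, in which the pacemaker channel gene Hcn4 drives a Cre that needs tamoxifen to act, and a Rosa-tdTomato reporter that recombination switches on. The mutant embryos had floxed Isl1 (Isl1f/f) and the controls intact Isl1 (Isl1+/+). Tamoxifen was given at E10.5 (embryonic day) and the tissue was taken 36 hours later, with day 12.5 as the labelled stage. Embryos of one genotype were pooled, cells bearing the endothelial protein CD31 were depleted, and tdTomato-positive cells were sorted. There was 1 library per genotype, made from poly(A) RNA. Library totals of 110117186 control reads and 119018888 mutant reads were inferred from the deposited values. The read numbers and intervals below rest on these totals. Levels are in RPKM, reads scaled to exon length and to the reads of the library. Control cells and mutant cells below stand for these pools of 1 library each. With 1 library per genotype differences are given by their size, without a test. The interval beside a fold is an exact 95% interval on the reads, which covers counting error only and not the spread between embryos or libraries. In pooled cells, fewer cells of a type and less RNA per cell cannot be told apart.

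Wnt proteins are secreted ligands that carry a lipid. They bind Frizzled receptors together with the co-receptors Lrp5 or Lrp6, and the signal passes through Dishevelled to a complex of Axin, Apc, Gsk3 and casein kinase 1 that otherwise marks beta-catenin for destruction. Stabilised beta-catenin enters the nucleus and, with Lef1 and the TCF proteins, switches on target genes, among them the feedback inhibitors Axin2 and Nkd1. The pathway takes part at several steps of heart formation, and Isl1 is itself described as a beta-catenin target in mouse cardiac progenitors.

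Isl1 stood at 7.65 RPKM in control cells and 1.52 RPKM in mutant cells. The mutant value was thus 5.02-fold lower (interval 4.53 to 5.57), the direction that the genotype labels give. Of the 6 marker genes listed for pacemaker cells, Isl1 among them, all 6 were in the table and lower in mutant cells, beside 67.1% of all genes. Their summed level was 51.2 RPKM in control cells and 23.4 RPKM in mutant cells. Hcn4, the gene that drives the Cre, was at 1.99 RPKM in control cells and 0.541 RPKM in mutant cells. Of 8 heart muscle markers 7 were higher, beside 32.9% of all genes, with sums of 12650 and 17720 RPKM. The genes of both lists were detected in both libraries, with Hcn4 at a low level in mutant cells.

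Most Wnt pathway genes were expressed at a low level and were lower in mutant cells. Of the 35 genes, 30 were lower and 5 were higher by any amount, beside 67.1% lower and 32.9% higher among all genes of the table. Of the 30, Axin1, Dvl3, Wif1 and Wls became higher when the libraries were scaled to their upper quartiles. Only 9 of the 35 reached 5 RPKM in either library, of which 6 were lower, beside 61.9% of all genes at that level, and 24 of the 26 others were lower, beside 72.6%. The ratio of the libraries moved with level: with all genes ordered by mean RPKM into 10 level classes of like size, the lowest class had a median log2 ratio of -1.03 and the highest 0.02. Against the median of their own level class, 20 of the 35 genes were lower and 15 higher.

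The table lists a gene only if it reaches 1 RPKM in a library, the lowest such value being 1.001. Of the 35 genes, 8 reached 1 RPKM only in control cells (12.9% of all genes) and 0 only in mutant cells (3.75% of all genes). Those 8 genes, Apcdd1, Axin2, Gsk3a, Nkd1, Pygo1, Sfrp2, Sfrp5 and Wnt11, were listed through their control value alone. A gene under 1 RPKM in mutant cells is listed only if its control value is higher. The count of lower genes thus describes the table and supports no direction.

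**Figure D1:**
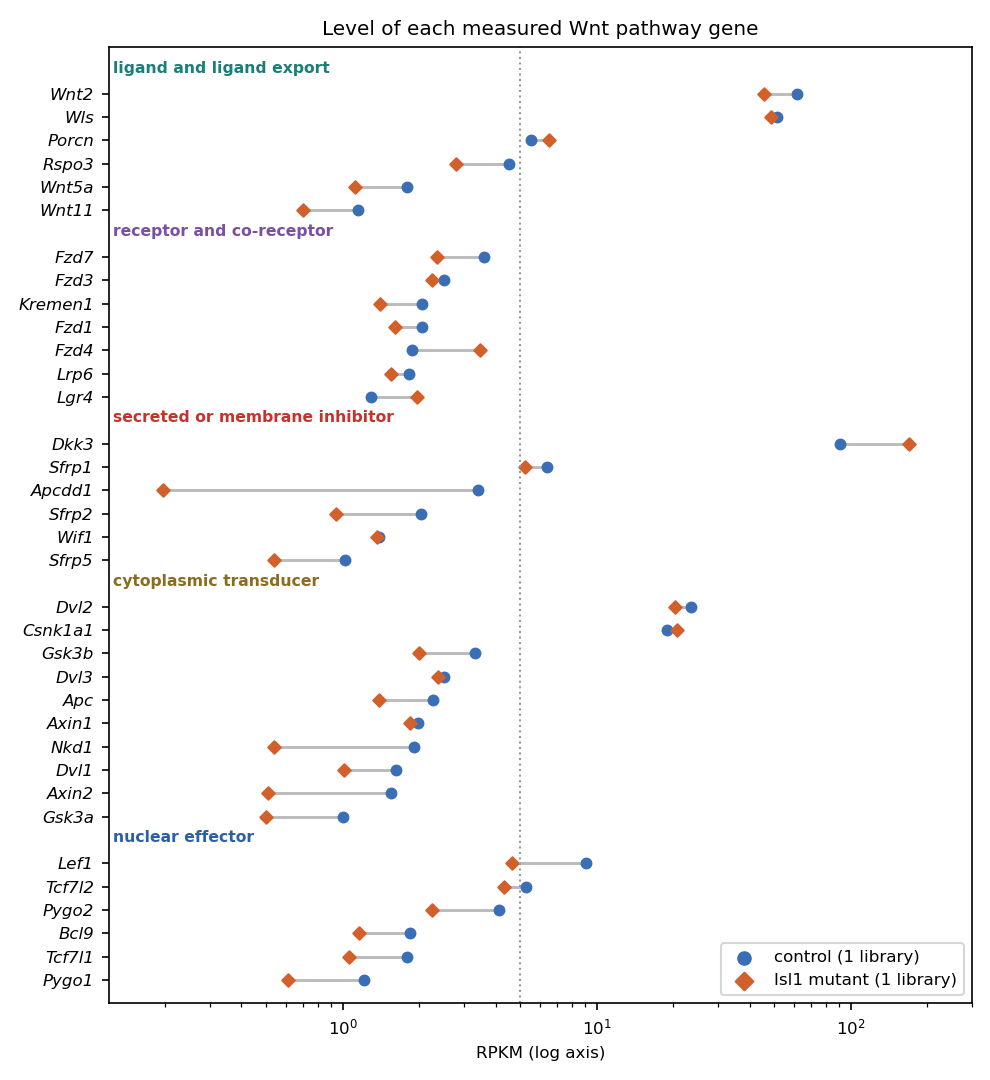
Level in RPKM (log axis) of the 35 measured Wnt pathway genes, grouped by role, with 1 library per genotype; circles are the control library, diamonds the Isl1 mutant library, and the dotted line marks 5 RPKM. Dkk3, Wnt2, Wls, Dvl2 and Csnk1a1 lie far to the right of the other genes, and Apcdd1 has the longest distance between its points.

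Among the ligand genes, Wnt2 stood far above the rest. Wnt2, which encodes a ligand of the beta-catenin branch (chromosome 6, 17938940 to 17980585, minus strand, mm9), was at 61.5 RPKM in control cells and 45.7 RPKM in mutant cells. It was 1.35-fold lower (interval 1.31 to 1.38) and lay at percentile 6.99 of the ratios in its level class, the highest. Wnt5a, the gene of a ligand known for signalling without beta-catenin, was at 1.80 and 1.12 RPKM, 1.60-fold lower (interval 1.44 to 1.78). Wnt2 made up 95.4% of the summed RPKM of the 3 measured Wnt ligand genes in control cells and 96.2% in mutant cells. The third gene was Wnt11. The other 16 Wnt ligand genes have no row and do not enter these shares.

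Of the genes that act on ligands or with them, Wls and Porcn differed little and Rspo3 more. Wls, which encodes the carrier that takes Wnt proteins to the cell surface, was at 51.3 RPKM in control cells and 48.6 RPKM in mutant cells, 1.06-fold lower (interval 1.04 to 1.08). Porcn, the gene of the enzyme that adds the lipid, was at 5.54 and 6.47 RPKM, 1.17-fold higher (interval 1.10 to 1.24). Rspo3, a secreted R-spondin that strengthens Wnt signals through Lgr receptors, was at 4.53 and 2.79 RPKM. Its value was 1.63-fold lower (interval 1.48 to 1.78), at percentile 20 of its level class.

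Receptor genes were all under 5 RPKM, and here the directions were mixed. Fzd4, a Frizzled receptor that also binds the ligand Norrin (chromosome 7, 96552876 to 96558620, plus strand, mm9), was at 1.87 RPKM in control cells and 3.46 RPKM in mutant cells. That was 1.85-fold higher (interval 1.69 to 2.02), at percentile 96.5 of its level class, where the median log2 ratio was -0.37. Lgr4, a receptor of R-spondins (chromosome 2, 109757804 to 109854414, plus strand, mm9), was at 1.29 and 1.96 RPKM, 1.52-fold higher (interval 1.37 to 1.68). It lay at percentile 91.4 of its level class. Fzd4 and Lgr4 were the 2 higher genes among the 26 pathway genes below 5 RPKM, a share of 7.69% beside 27.4% of all genes below that level.

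The other receptor genes were lower in mutant cells. Fzd7 went from 3.60 RPKM in control cells to 2.35 RPKM in mutant cells, 1.53-fold lower (interval 1.42 to 1.65). Fzd1 was at 2.06 and 1.62 RPKM, Fzd3 at 2.50 and 2.26 RPKM, and the co-receptor gene Lrp6 at 1.83 and 1.55 RPKM. All 3 lay above the median of their level class. Kremen1, the gene of a receptor for Dickkopf proteins, was at 2.06 and 1.41 RPKM. Fzd7 was the highest Frizzled gene in control cells and Fzd4 the highest in mutant cells, while the summed RPKM of the 4 Frizzled genes was 10.04 and 9.69.

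The genes grouped as secreted and membrane inhibitors divided into Dkk3 and the others. Dkk3, a divergent member of the Dickkopf family of secreted proteins (chromosome 7, 119259533 to 119302571, minus strand, mm9), was the most abundant of the 35 genes, at 90.8 RPKM in control cells and 169 RPKM in mutant cells. It was 1.86-fold higher (interval 1.84 to 1.89), at percentile 97.5 of the highest level class. In the same group Sfrp1, which encodes a secreted Wnt-binding protein, was at 6.36 and 5.24 RPKM, 1.21-fold lower (interval 1.15 to 1.28). Wif1, the gene of another secreted Wnt-binding protein, was at 1.39 and 1.37 RPKM with an interval of the mutant to control ratio that includes equal levels (0.774 to 1.26). Dkk3 made up 86.4% of the summed RPKM of the 6 genes of this group in control cells and 95.3% in mutant cells. Without Dkk3 the sum was 14.2 RPKM in control cells and 8.28 RPKM in mutant cells. Dkk3 was placed in this group as a Dickkopf gene, and whether it inhibits Wnt signals in these cells was not tested.

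Apcdd1 had the lowest ratio of the 35 genes. It encodes a membrane protein that binds Wnt proteins and dampens the signal, and it is a known target of the pathway. Apcdd1 (chromosome 18, 63081981 to 63131743, plus strand, mm9) was at 3.43 RPKM in control cells and 0.197 RPKM in mutant cells, 17.4-fold lower. The interval was 9.94 to 33.2, on 209 and 13 reads or more, and the ratio lay at percentile 0.322 of its level class. Its reads fit an exon length of 554 bases or a multiple of it, where its GENCODE exons together cover 12884 bases, so the true read numbers can be larger. Sfrp2, a relative of Sfrp1, was at 2.04 and 0.943 RPKM, 2.16-fold lower (interval 1.82 to 2.58), at percentile 23.0 of its level class. It overlaps Gm16790 on the opposite strand, and the kit is not stated to keep strand, so shared reads cannot be told apart.

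In the cytoplasm, the most abundant components lay close together in both libraries. Dvl2, a Dishevelled gene, was at 23.5 RPKM in control cells and 20.4 RPKM in mutant cells, 1.15-fold lower (interval 1.13 to 1.18). Csnk1a1, the gene of the casein kinase that phosphorylates beta-catenin first, was at 19.0 and 20.7 RPKM, 1.09-fold higher (interval 1.07 to 1.11). The order of Dvl2 and Csnk1a1 was therefore exchanged between the libraries. The scaffold gene Axin1 was at 1.99 and 1.84 RPKM, and Dvl3 was at 2.51 and 2.37 RPKM. The intervals of both ratios include equal levels (0.836 to 1.02 for Axin1 and 0.844 to 1.05 for Dvl3). Dvl2 overlaps Acadvl and Mir324, and Dvl3 overlaps Gm16618.

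Other genes of the destruction complex, and the Dishevelled gene Dvl1, were lower. Gsk3b, a kinase gene of the complex, was at 3.33 RPKM in control cells and 2.01 RPKM in mutant cells, 1.66-fold lower (interval 1.56 to 1.77). Apc, its scaffold gene, was at 2.28 and 1.39 RPKM, 1.64-fold lower (interval 1.55 to 1.74), and Dvl1 at 1.63 and 1.01 RPKM. Gsk3a, the second Gsk3 gene, was at 1.003 and 0.498 RPKM, 2.01-fold lower (interval 1.26 to 3.28, on 54 and 29 reads or more). Gsk3a lay at percentile 51.2 of its level class, in the middle of genes of like level.

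Axin2 and Nkd1, the feedback inhibitors that the pathway switches on in many tissues, had the lowest ratios of the cytoplasmic genes. Nkd1, which encodes a Dishevelled-binding protein (chromosome 8, 91045243 to 91118786, plus strand, mm9), was at 1.91 RPKM in control cells and 0.539 RPKM in mutant cells. It was 3.54-fold lower (interval 3.08 to 4.09, on 859 and 262 reads or more), at percentile 7.63 of its level class. Axin2, the inducible Axin gene (chromosome 11, 108781663 to 108812097, plus strand, mm9), was at 1.55 and 0.508 RPKM, 3.06-fold lower (interval 2.54 to 3.70, on 433 and 153 reads or more). Axin2 belonged to the lowest level class, whose median log2 ratio was -1.03 beside -1.61 for Axin2, and lay at percentile 32.2 of it. It overlaps Gm11670 on the opposite strand.

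All 6 nuclear genes were lower in mutant cells, beside 67.1% of all genes. Lef1, which encodes the DNA-binding partner of beta-catenin and is also a target of the pathway (chromosome 3, 130813389 to 130927274, plus strand, mm9), was at 9.08 RPKM in control cells and 4.64 RPKM in mutant cells. It was 1.96-fold lower (interval 1.85 to 2.07), at percentile 5.14 of its level class. Tcf7l2, a TCF gene of the same family, was at 5.28 and 4.33 RPKM, 1.22-fold lower (interval 1.17 to 1.27), at percentile 47.1. Tcf7l1, a TCF gene known mainly as a repressor, was at 1.80 and 1.06 RPKM, 1.69-fold lower (interval 1.22 to 2.35). It overlaps Gm15401. The counting interval of Lef1 did not meet that of Tcf7l2 but lay within that of Tcf7l1. The reads of Tcf7l1 fit an exon length of 505 bases or a multiple of it, where its GENCODE exons together cover 3924 bases. Its true read numbers can thus be larger and its interval narrower. Whether the ratios of Lef1, Tcf7l2 and Tcf7l1 differ beyond the spread between libraries was not tested.

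The co-activator genes that link beta-catenin to chromatin were lower too. Pygo2 was at 4.14 RPKM in control cells and 2.25 RPKM in mutant cells, 1.84-fold lower (interval 1.68 to 2.01), at percentile 13.1 of its level class. Bcl9, which encodes the adaptor between beta-catenin and Pygo proteins, was at 1.84 and 1.16 RPKM, 1.59-fold lower (interval 1.47 to 1.72), at percentile 40.2. The sixth nuclear gene was Pygo1, whose ratio lay at percentile 51.9 of its level class. The summed RPKM of the 6 genes was 23.4 in control cells and 14.1 in mutant cells.

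**Figure D2:**
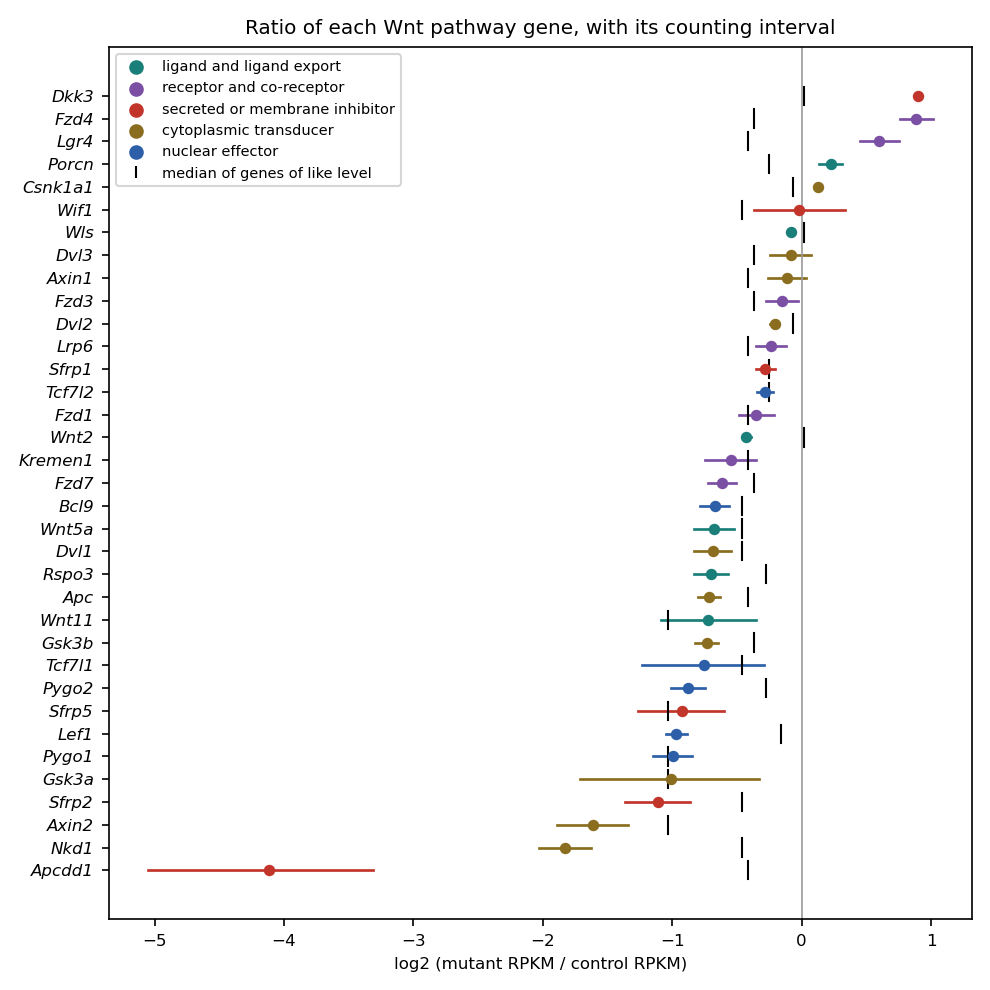
log2 ratio of mutant to control RPKM of the 35 Wnt pathway genes (points, coloured by role), with exact 95% counting intervals (horizontal lines) from 1 library per genotype; the black tick in each row is the median ratio of all genes in the same level class. Dkk3, Fzd4 and Lgr4 lie to the right of 0 and of their ticks, while Apcdd1, Nkd1 and Lef1 lie far to the left of theirs and Gsk3a and Pygo1 lie on theirs.

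A gene was counted by size when the log2 ratio, after adding 1 RPKM to both values, passed the stated fold and the gene reached 5 RPKM in either library. At 2-fold, 0 of the 9 Wnt genes at that level were higher, beside 1.01% of 6343 genes, and 0 were lower, beside 2.68%. At 1.5-fold, 1 was higher, Dkk3, beside 3.77% of all such genes, and 1 was lower, Lef1, beside 11.8%. The median over the 9 genes was -0.20 on this scale and -0.10 over all 6343 genes. By the plain ratio of RPKM with no lower level, a count chosen after the values were seen, 5 of the 35 genes were at least 2-fold lower, which is 14.3% beside 13.8% of all genes, and 0 were at least 2-fold higher, beside 3.29%. All 5 lay below 5 RPKM, where they made up 19.2% of 26 genes beside 23.5% of all genes, and 0 of the 26 were 2-fold higher, beside 5.33%. These shares of lower genes lay near those of all genes.

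**Figure D3:**
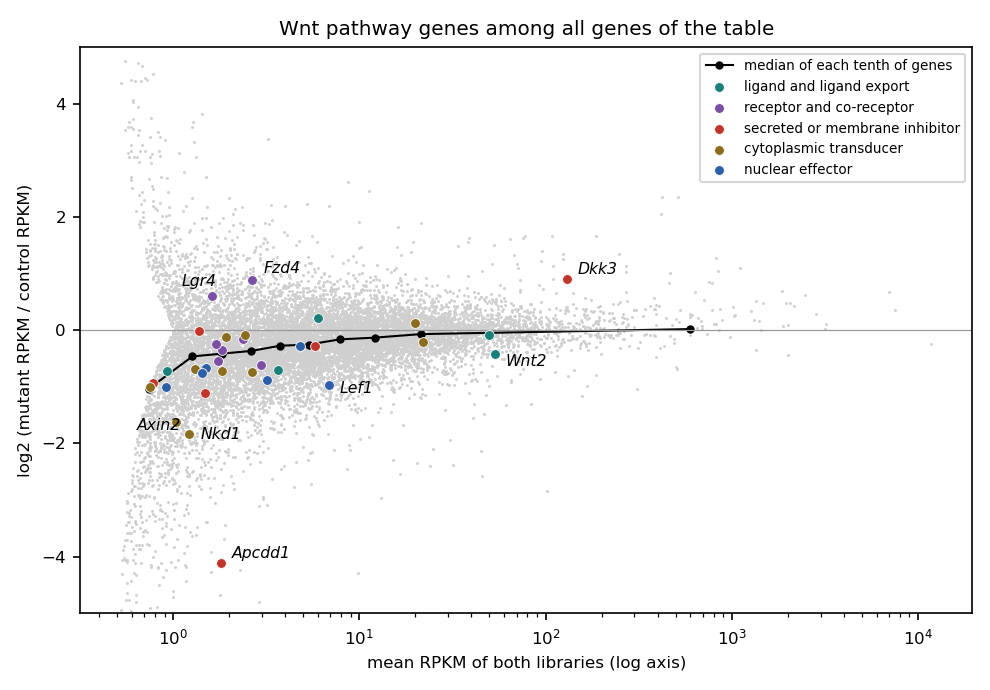
Mean RPKM of both libraries (log axis) against the log2 ratio of mutant to control RPKM for all genes of the table (grey, with 53 genes beyond the axis limits of 5 not drawn) and the 35 Wnt pathway genes (coloured by role), from 1 library per genotype. The black line joins the medians of the 10 level classes, from -1.03 at the lowest to 0.02 at the highest; Dkk3 lies above and Apcdd1, Nkd1 and Lef1 below it.

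The stretches before the transcription starts of Axin2 and Nkd1 are shown because both are targets of the pathway and were lower, and those of Wnt11 and Tcf7l2 because each holds a word that was searched. Windows of 250 bases before the start, from RefSeq (GRCm38.p6, a build other than the mm9 of the gene table), were found for 23 of the 35 genes. The most upstream window was used for each gene. For 19 of the 23, the bases after the window were found near the 5′ end of a GENCODE transcript of the gene, and for Fzd1, Fzd7, Lef1 and Wls they were not. The words of the TCF and LEF core were CTTTGAA or CTTTGAT or CTTTGTA or CTTTGTT, on both strands. They occurred in 3 of the 23 windows (13.0%), those of Fzd7, Gsk3a and Wnt11, beside 14.9% of 27025 genes with a window and 10.1% of the 8330 of them in the table. The words used for the ISL1 core were CTAATGA or CTAATGG or TTAATGA or TTAATGG, on both strands. They occurred in 2 of the 23 windows (8.70%), those of Pygo2 and Tcf7l2, beside 8.03% of the 27025 and 4.99% of the 8330. None of these words overlapped another. Axin2, Nkd1 and Lef1 had 0 words in these windows, which says nothing of sites elsewhere.

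The windows are printed 5′ to 3′ on the strand of the gene, at chr11:108920099-108920348 (plus) for Axin2, chr8:88527383-88527632 (plus) for Nkd1, chr7:98834862-98835111 (plus) for Wnt11 and chr19:55741560-55741809 (plus) for Tcf7l2. Capitals mark the TCF and LEF word in Wnt11 (51 to 45 bases before the start) and the ISL1 word in Tcf7l2 (22 to 16 bases before the start).
Axin2: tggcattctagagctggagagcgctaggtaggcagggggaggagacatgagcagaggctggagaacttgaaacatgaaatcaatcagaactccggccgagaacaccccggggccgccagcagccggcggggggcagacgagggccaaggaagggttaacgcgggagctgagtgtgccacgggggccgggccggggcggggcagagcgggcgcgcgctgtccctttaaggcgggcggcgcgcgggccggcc
Nkd1: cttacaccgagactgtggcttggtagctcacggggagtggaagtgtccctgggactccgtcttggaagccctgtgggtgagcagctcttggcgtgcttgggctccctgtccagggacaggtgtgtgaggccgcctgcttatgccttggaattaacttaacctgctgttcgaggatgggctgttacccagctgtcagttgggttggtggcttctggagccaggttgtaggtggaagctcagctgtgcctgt
Wnt11: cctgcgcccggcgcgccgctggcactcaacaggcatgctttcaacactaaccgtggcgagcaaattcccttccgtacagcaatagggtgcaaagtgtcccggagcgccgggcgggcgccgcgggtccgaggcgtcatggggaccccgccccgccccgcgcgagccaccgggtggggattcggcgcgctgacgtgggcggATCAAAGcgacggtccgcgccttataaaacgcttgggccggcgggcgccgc
Tcf7l2: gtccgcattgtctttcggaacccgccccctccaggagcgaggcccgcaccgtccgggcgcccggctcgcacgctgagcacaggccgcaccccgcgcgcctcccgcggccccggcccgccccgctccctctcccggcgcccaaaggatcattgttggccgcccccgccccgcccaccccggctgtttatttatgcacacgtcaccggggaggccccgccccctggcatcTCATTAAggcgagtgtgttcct

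Other genes of the pathway were taken from 3 lists outside the 35. Of 48 further core genes 38 were in the table, 32 lower and 6 higher by any amount, beside 67.1% and 32.9% of all genes. Among the 19 of them that reached 5 RPKM, 2 passed 1.5-fold downward on the same scale and 0 were at least 1.5-fold higher, beside 11.8% and 3.77% of all genes. These were Ctbp1, a transcriptional co-repressor gene, at 9.60 RPKM in control cells and 4.33 RPKM in mutant cells (2.22-fold lower, interval 2.004 to 2.45), and Btrc, which encodes the ubiquitin ligase subunit that recognises beta-catenin, at 9.64 and 6.07 RPKM (1.59-fold lower, interval 1.53 to 1.65). By the plain ratio, Csnk1g2 (5.16 and 3.13 RPKM, 1.65-fold lower) and Tle2 (7.15 and 4.65 RPKM, 1.54-fold lower) also passed 1.5-fold. Neither did so on the scale with 1 RPKM added. Ctnnb1, the beta-catenin gene, lay just under 1.5-fold on that scale and is given for its central place. It was at 34.3 and 23.0 RPKM, 1.49-fold lower by the plain ratio (interval 1.46 to 1.52), and it overlaps Ulk4.

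Of 24 genes of signalling without beta-catenin 21 were in the table, 16 lower and 5 higher, beside the same 67.1% and 32.9%. Of the 7 that reached 5 RPKM, 1 was at least 1.5-fold lower on the same scale, beside 11.8% of all genes, and 0 were higher by that size, beside 3.77%. This was Ptk7, the gene of a co-receptor of planar cell polarity, at 5.91 RPKM in control cells and 2.35 RPKM in mutant cells (2.51-fold lower, interval 2.35 to 2.69). The median log2 ratio was -0.63 over the 21 genes and -0.02 over those 7.

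Of 24 genes described as targets in other tissues 16 were in the table, 10 lower and 6 higher, again beside 67.1% and 32.9% of all genes. Of the 11 that reached 5 RPKM, 4 were at least 1.5-fold lower, beside 11.8% of all genes, and 1 was at least 1.5-fold higher, beside 3.77%. Myc, a growth regulator gene, was at 8.89 RPKM in control cells and 1.98 RPKM in mutant cells, 4.49-fold lower (interval 3.35 to 6.11, on 237 and 57 reads or more). Fn1, the fibronectin gene, was at 29.7 and 13.0 RPKM (2.28-fold lower, interval 2.22 to 2.34), and it overlaps Apol7d. Bambi, which encodes a receptor-like inhibitor of TGF-beta signalling, was at 8.73 and 4.85 RPKM, 1.80-fold lower (interval 1.72 to 1.88). Cd44, the gene of a hyaluronan receptor, went the other way, at 3.81 and 7.73 RPKM, 2.03-fold higher (interval 1.94 to 2.13).

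Markers of cell types other than heart muscle also differed between the libraries. The counts of these markers stand beside 67.1% lower and 32.9% higher among all genes. All 10 markers of mesenchyme and fibroblasts were lower in mutant cells, with summed levels of 508 RPKM in control cells and 222 RPKM in mutant cells. The 5 measured of 7 endothelial markers were lower as well, with sums of 20.3 and 9.49 RPKM, and all 7 macrophage markers were measured and lower, with sums of 42.2 and 7.48 RPKM. All 6 red cell markers were lower, with sums of 287 and 46.8 RPKM, and the 3 measured of 6 neural crest and glia markers were lower, with sums of 13.9 and 7.95 RPKM. The 7 epicardial markers had sums of 79.6 and 78.1 RPKM, with 5 lower and 2 higher. No measured marker was at 0 in either library, while Cdh5, Flt1, Sox10 and Erbb3 have no row in the table. The part of these cells in the lower values of Lef1, Apcdd1, Axin2, Nkd1, Sfrp2 and Fn1 and in the other Wnt gene values was not tested.

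**Figure D4:**
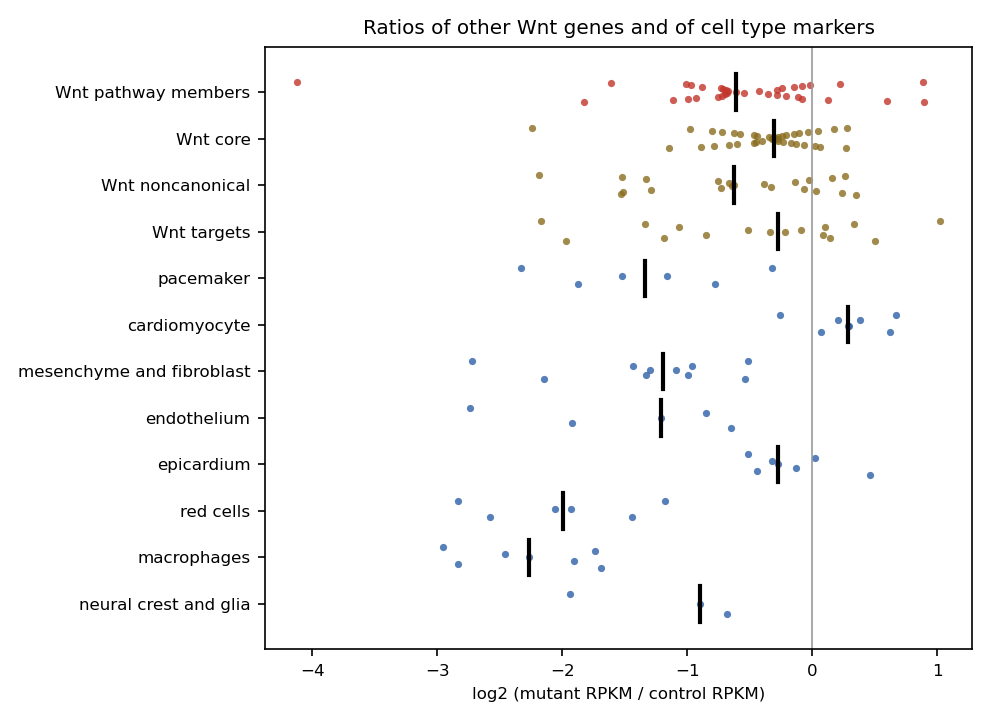
log2 ratio of mutant to control RPKM for each measured gene (points) and the median (black bars) of the 35 Wnt pathway genes (red), of 3 lists of other Wnt genes (brown) and of 8 cell type marker lists (blue), from 1 library per genotype. The median of the Wnt pathway genes is -0.61, that of heart muscle markers 0.29, that of mesenchyme and fibroblast markers -1.19 and that of macrophage markers -2.27.

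Genes of these families without a row, for which no level is given, include the receptor and co-receptor genes Fzd2, Fzd5, Fzd6, Fzd8, Fzd9, Fzd10, Lrp5, Lgr5 and Lgr6. They also include the inhibitor genes Dkk1, Dkk2, Dkk4, Sfrp4, Notum, Nkd2, Znrf3 and Rnf43, the nuclear gene Tcf7, and Rspo1, Rspo2 and Rspo4. The remaining 16 are Wnt1, Wnt2b, Wnt3, Wnt3a, Wnt4, Wnt5b, Wnt6, Wnt7a, Wnt7b, Wnt8a, Wnt8b, Wnt9a, Wnt9b, Wnt10a, Wnt10b and Wnt16.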

How the data were processed

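Cells were sorted from pooled nodes of each genotype, and 1 library per genotype was sequenced in read pairs. Per the submitters' processing notes, the build was mm9 and the tools included TopHat2, Bowtie2, FastQC and Trim Galore. For the counting of reads per gene no tool is named there. The authors deposited 1 value per gene and library, identified here as RPKM because, in 284 small RNA genes, value times length was whole within 0.01 reads in 284 control and 276 mutant cases. The deposited log2 ratio of the authors equals the log2 ratio of these values (largest difference 1.89e-07), and a further deposited score, a signed fold, was left aside.

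The 12557 rows were merged to 12446 symbols, keeping the entry with the highest mean. Reads were recovered as the smallest whole numbers that fit both values, so intervals (Clopper-Pearson, conditional on both read numbers) may be wider than needed. A pseudocount of 1 was used for counts by size. Exon lengths are the union of GENCODE M21 exons, with no coordinates taken from it. Named were Isl1, Wnt pathway genes at 5 RPKM, those below it that reach 1 RPKM in both libraries or differ 2-fold, and other pathway genes at 5 RPKM that differ 1.5-fold, of which 1 target is counted but not reported here. Coordinates are the authors' mm9 values. The macrophage list held 1 gene under both its symbols, Adgre1 and Emr1, and it was counted once, as Emr1. The members and lists were chosen with earlier results of these data known. Alternatives were other pseudocounts, scalings, floors, a level correction, repeated entries, the mean and added genes. The scripts were tested on simulated data and used Python 3.11.15, numpy 2.4.6, pandas 2.3.3 and scipy 1.17.1.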

Additional observations from a re-analysis of the deposited data

How the results depend on the processing

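No paired analysis was possible because each genotype has 1 library, and for the same reason no replicate could be left out. With a pseudocount of 0.1 or the lowest entry of a repeated symbol, the counts of Wnt genes past 2-fold and 1.5-fold were those reported. With a pseudocount of 5, or a floor of 10 RPKM (5 genes), 0 genes were at least 1.5-fold lower in place of 1. Scaling to the upper quartile, a shift of -0.12 (log2), put 1 gene at least 2-fold higher in place of 0. Without a floor (35 genes), 1 gene passed 2-fold downward, 2 passed 1.5-fold upward and 6 passed 1.5-fold downward, and with a floor of 2 RPKM (21 genes) these counts were 1, 2 and 4. The plain RPKM ratio without a floor, chosen after the data were seen, gave 5 genes at least 2-fold lower. The median over the Wnt genes, -0.20, became -0.026 with the level median subtracted and -0.39 without a floor, and lay between -0.24 and -0.08 under the other settings. With the level median subtracted, the log2 ratios of Wnt11 (0.31), Sfrp5 (0.11), Gsk3a (0.026) and Pygo1 (0.038) became positive. The sign of the ratio also changed for 6 genes of smaller difference under that correction, for Wif1 with the median scaling, and for Axin1, Dvl3, Wif1 and Wls with the upper quartile scaling. Apcdd1 and Gsk3a had the fewest recovered mutant reads, 13 and 29, which are lower bounds. They come from fitted lengths of 554 and 489 bases, where the GENCODE exons cover 12884 and 2900 bases. Which ratios depth limits most is therefore not known.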

Other observations

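Several pairs of related genes, with at least 1 of the pair outside the 35, lay on opposite sides or far apart, a comparison chosen after the values were seen. Frzb, which encodes the secreted Wnt-binding protein also known as Sfrp3, was at 3.48 RPKM in control cells and 0.738 RPKM in mutant cells, 4.72-fold lower (interval 4.10 to 5.44). Its relative Sfrp1 was 1.21-fold lower. Ror1, the gene of a receptor for Wnt5a, was at 1.74 and 0.605 RPKM (2.88-fold lower, interval 2.51 to 3.31), while its relative Ror2 was at 3.05 and 3.65 RPKM (1.20-fold higher, interval 1.11 to 1.29). Daam2, a formin gene downstream of Dishevelled, was at 2.77 and 0.963 RPKM (2.88-fold lower, interval 2.62 to 3.16), and Daam1 was at 2.56 and 3.27 RPKM (1.28-fold higher, interval 1.20 to 1.36). Prickle2, a planar cell polarity gene, was at 1.02 and 0.225 RPKM (4.55-fold lower, interval 3.30 to 6.40), and Prickle1 was at 7.81 and 7.95 RPKM, with an interval of the mutant to control ratio that includes equal levels (0.972 to 1.07). Frzb, Ror1, Daam2 and Prickle2 all lay below 5 RPKM, where the median log2 ratio of all genes was -0.41. The median of the level class was -0.41 for Frzb and Daam2, -0.46 for Ror1 and -1.03 for Prickle2. Each of these genes reached 1 RPKM only in control cells. A gene under 1 RPKM in mutant cells is listed only if its control value is higher. The pairs were also picked by their values, so the contrasts within them describe the table and support no direction.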
